A study of Homo sapiens with 6 samples.

Results

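The unfolded protein response and the integrated stress response were described over 44 genes named for their known place in these pathways. The genes were listed by name and no measured value enters the rule, but the list was drawn up with earlier results of these data known. Of the 44, 41 matched a feature of the array, and ALDH1L2, SEL1L and SLC3A2 did not and are not analysed here. These 41 genes were read on 43 features, out of 12562 named genes in all. Where a gene had more than 1 feature, its brightest feature by mean over the 6 arrays stood for it.

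The cells were SW480, an established line from a human colorectal adenocarcinoma. The test group carried a FOXC2 construct and the control group the empty retroviral vector pBabe, and FOXC2 is a forkhead transcription factor. Cells of both groups received their vector by retrovirus. They were kept under puromycin (0.5 μg/mL) for 3 to 5 days, grown in 10% serum and harvested at 90% confluence. Each group held 3 arrays from 3 separate cultures. The labels speak of separate cultures and not of separate transductions, so a p-value here measures how cultures vary. Values are normalized single-colour intensities on a linear scale, with array medians between 895 and 913, and log2 fold changes are given as FOXC2 less pBabe. In such bulk RNA, fewer cells of a type and less RNA per cell cannot be told apart.

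The labels were checked on the introduced gene and on cell type markers. The FOXC2 feature read 8777, 8262 and 8344 with the construct and 2319, 2323 and 2818 with the empty vector. Among 8 measured epithelial markers the keratins KRT8 and KRT18 had group means between 22691 and 35384, 5 markers rose, 1 fell, and the summed level of the list was 73147 to 77492 in FOXC2 and 67670 to 72797 in pBabe. CDH1 and CDH17 were dim, at group means between 97.9 and 200. Of 4 fibroblast markers 3 fell, COL1A1, PDGFRB and DCN, and the summed level of all 4 was 821 to 1009 against 3290 to 4095. The other one, COL3A1, did not pass and lay the other way, at means of 125 in FOXC2 and 96.9 in pBabe cultures with no overlap (log2 fold change 0.37, limma adjusted p 0.116). The 1 leukocyte marker measured, CD3D, fell too, at 72 to 95 against 675 to 813. The part of these marker changes in the results below was not tested. Of 3 plasma cell markers, a cell type with a strong unfolded protein response, SDC1 rose (log2 fold change 0.99), and PRDM1 and IRF4 stayed between group means of 109 and 154.

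The unfolded protein response begins in the endoplasmic reticulum (ER), where the sensors IRE1 (gene ERN1), PERK (EIF2AK3) and ATF6 detect misfolded protein. IRE1 splices the mRNA of XBP1, and XBP1 and ATF6 then raise genes for chaperones and for the disposal of misfolded protein, often through a promoter sequence called the ER stress response element (ERSE). PERK belongs to a small set of kinases that phosphorylate the translation factor eIF2alpha, which slows protein synthesis while favouring translation of ATF4. ATF4 raises genes for amino acid supply and for feedback, and this wider branch, also entered on amino acid shortage, is the integrated stress response (ISR). Phosphorylation, splicing and protein levels were not measured here, so the values below describe the transcripts alone.

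Most of these genes did not differ detectably between FOXC2 and pBabe cultures. Of the 41 measured, 2 rose, 6 fell and 33 did not pass the test, which was limma with Benjamini-Hochberg adjustment over all 33497 features at an adjusted p under 0.05. The lipoprotein receptor gene VLDLR, the transcription factor gene CEBPB and the growth inhibitor gene DDIT4 fell most, and they passed under every processing alternative run and with each array left out. The falls of EDEM1, PSPH and DNAJB11 and the rises of SLC7A5 and CRELD2 were below 1.5-fold. The 8 genes are 19.5% of the 41, where 28.4% of all 12562 named genes passed. By direction, 4.88% rose against 14.1% of all named genes, and 14.6% fell against 14.3%. The median log2 fold change was -0.10 over the 41 genes and 0.03 over all features. The groups did not overlap for 17 of the 41 (41.5%), 5 with FOXC2 above and 12 with FOXC2 below, and they did not overlap for 48.4% of all named genes.

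The count of passing genes differed between settings. With replicate number as a block, 3 of the 41 genes passed (7.32%, 19.5% of all named genes). They were VLDLR, CEBPB and DDIT4, the last at a limma adjusted p of 0.0491. CRELD2, DNAJB11, EDEM1, PSPH and SLC7A5 did not pass there, at limma adjusted p between 0.0574 and 0.0769. With a trended robust prior, 16 of the 41 genes passed (39.0%, 35.3% of all named genes), and with dim features left out 16 of 36 did (44.4%, 44.7% of those kept). Both added HERPUD1, ATF5, SESN2, PHGDH, SHMT2, WARS1 and AARS1. The filter on dim features kept a feature when its mean in either group reached the table's median of 903. CEBPG, at means of 984 in FOXC2 and 766 in pBabe, was kept through its FOXC2 mean alone, and it passed there as a rise. Leaving out FOXC2 replicate 2 or pBabe replicate 1 gave 4 passing genes (9.76%, beside 20.3% and 21.4% of all named genes). Leaving out pBabe replicate 3 gave 9 (22.0%, 22.3% of all named genes). There were 5 without FOXC2 replicate 3 (12.2%, 19.0% of all named genes) and 6 without FOXC2 replicate 1 (14.6%, 22.1%). Without pBabe replicate 2 there were 7 (17.1%, 21.7% of all named genes). The median log2 fold change went from -0.10 to -0.29 without pBabe replicate 3 and to -0.05 without pBabe replicate 1.

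**Figure D1:**
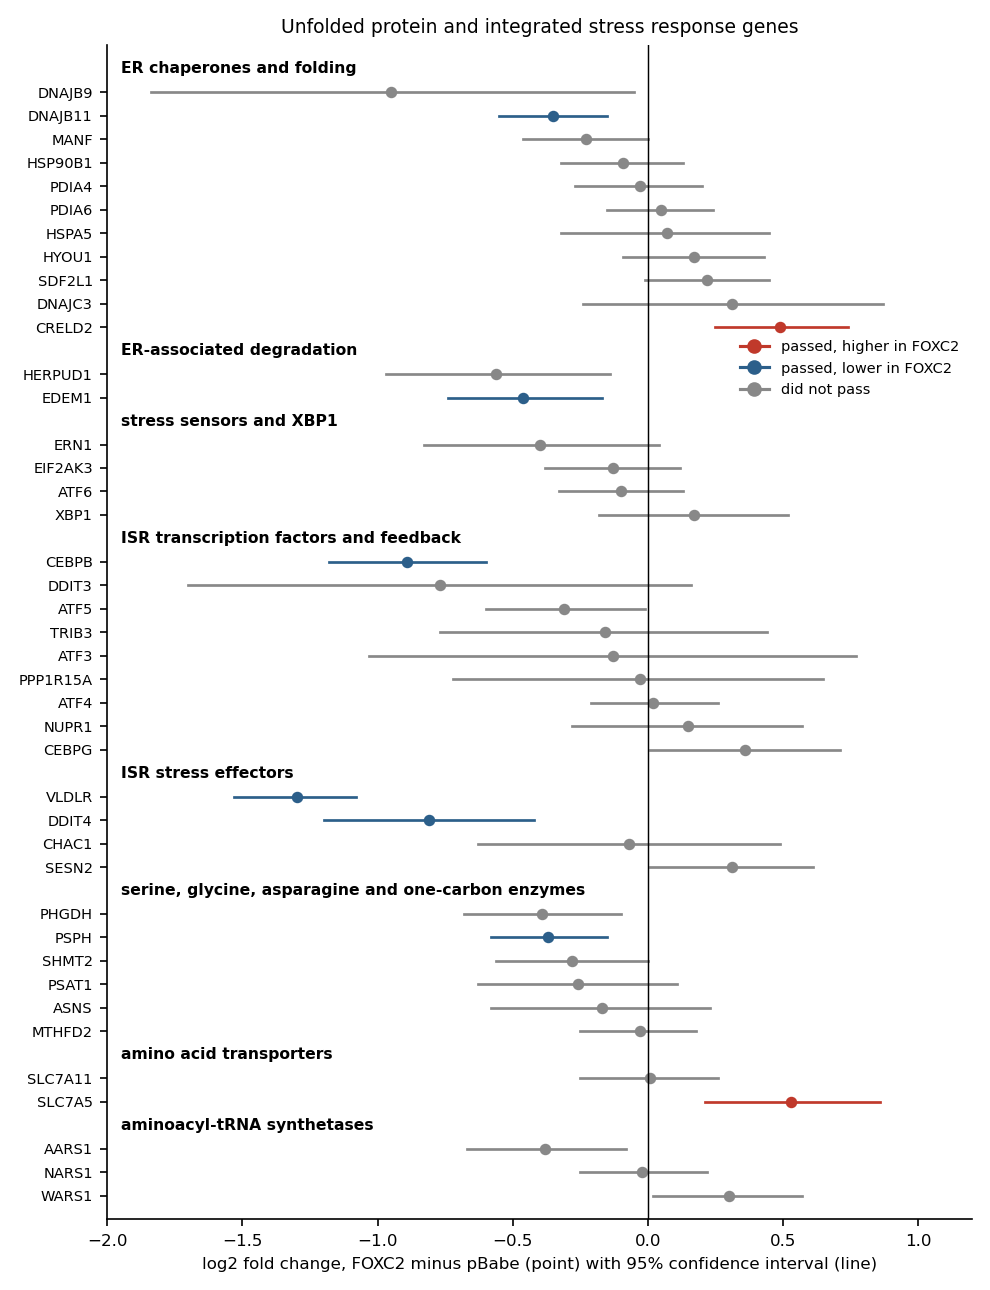
Log2 fold change between FOXC2 and pBabe cultures (horizontal axis) for 41 genes grouped by role, with the 95% confidence interval of each as a line. The 2 genes that rose are red, the 6 that fell are blue and the 33 that did not pass are grey. The widest intervals belong to DNAJB9, DDIT3 and ATF3.

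VLDLR encodes a receptor for lipoproteins and reelin and is a known target of ATF4 during ER stress. Its intensity was 1096, 1162 and 1132 in FOXC2 and 3002, 2550 and 2837 in pBabe cultures. The groups lay far apart and neither held a culture out of step with the others. The level was 2.47-fold lower in FOXC2 cells (95% confidence interval 2.11 to 2.89; log2 fold change -1.30 ± 0.0949, SE; limma adjusted p 2.35e-04). A second VLDLR feature, for another transcript, read 840, 1056 and 1154 against 2321, 2890 and 2328, which is -1.31 ± 0.152 on the log2 scale (SE; limma adjusted p 0.00154). Both features thus gave the same direction at nearly the same size.

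CEBPB encodes a leucine zipper factor that pairs with ATF4 and with CHOP at their target genes and also acts in inflammation and differentiation. It read 2320, 2672 and 2737 in FOXC2 and 5448, 4564 and 4323 in pBabe cultures. Every FOXC2 culture was below every pBabe culture, by 1.85-fold on average (95% confidence interval 1.51 to 2.27; limma adjusted p 0.00305). DDIT4 encodes an inhibitor of the growth kinase complex mTORC1 that is raised by ATF4, by low oxygen and by glucocorticoid. It read 3473, 4517 and 4728 in FOXC2 and 8644, 7305 and 6353 in pBabe cultures, again with no overlap. The level was 1.76-fold lower in FOXC2 cells (95% confidence interval 1.34 to 2.30; limma adjusted p 0.0131).

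**Figure D2:**
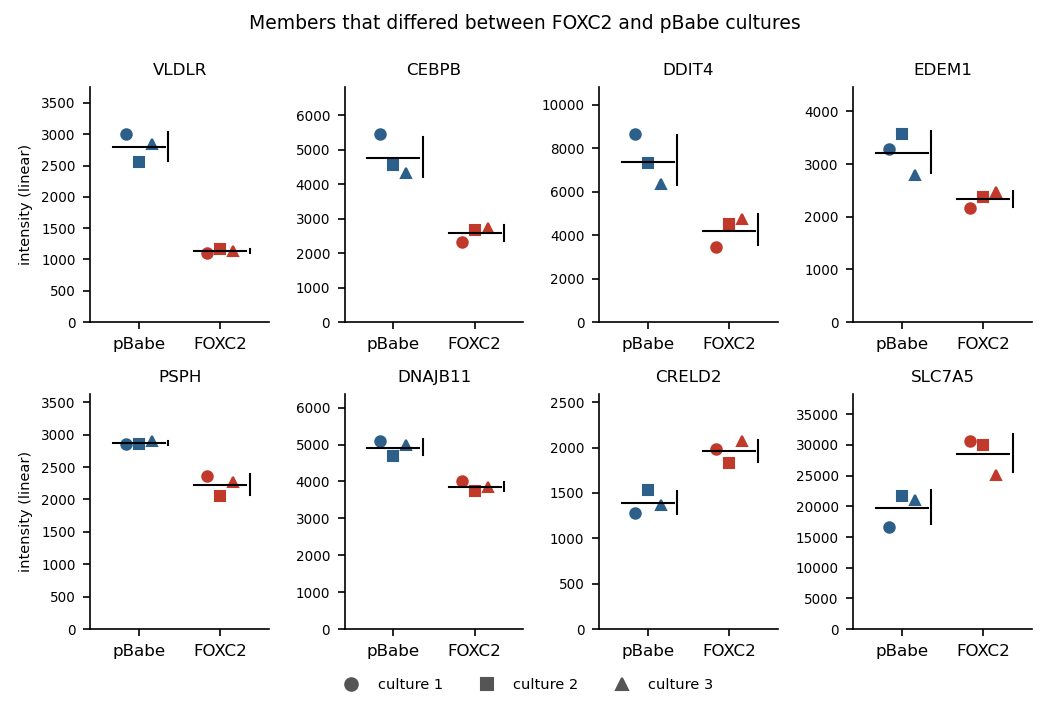
Linear intensity (vertical axes, from 0) of the 8 genes that passed, by group, with 1 symbol per culture, the mean of the log2 values as a horizontal bar and 1 SD of the log2 values to either side as a vertical bar. The FOXC2 and pBabe cultures do not overlap in any of the 8 panels.

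Of 11 ER chaperones and folding factors measured, 1 rose, 1 fell and 9 did not pass, with a median log2 fold change of 0.05. The share that passed was 18.2% (28.4% of all named genes), and the groups did not overlap for 4 of the 11 (36.4%, 48.4% of all named genes). HSPA5, the chaperone BiP that binds the sensors and is the textbook marker of ER stress, read 1122, 1436 and 1401 in FOXC2 and 1323, 1451 and 1026 in pBabe cultures. The groups overlapped, and the fold of FOXC2 over pBabe was 1.05 (95% confidence interval 0.80 to 1.37; limma adjusted p 0.798). For HSP90B1, the ER member of the HSP90 family, the values were 13273, 12875 and 11709 against 12588, 13869 and 13945, a fold of 0.937 (0.801 to 1.09). PDIA6, a disulfide isomerase, had the narrowest spread of the group, with 21426, 21565 and 22652 against 21156, 20573 and 21892 and a fold of 1.03 (0.902 to 1.18). The interval of HSPA5 was the widest of these 3.

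The other folding factors spread to both sides of 0. PDIA4, a second disulfide isomerase, had a log2 fold change of -0.03, HYOU1, the exchange factor for BiP, 0.17, and SDF2L1, a partner of BiP, 0.22, and none of these passed. MANF, a secreted survival factor stored in the ER, was at -0.23 (limma adjusted p 0.130), with 9099, 9255 and 9696 in FOXC2 below 11622, 11393 and 9900 in pBabe. The co-chaperones DNAJB9 and DNAJC3 were dim, at 58 to 105 against 85 to 217 and at 246 to 328 against 164 to 298. The lowest value of the table was 50, so their folds are uncertain, and that of DNAJB9 was -0.95 ± 0.375 on the log2 scale (SE; limma adjusted p 0.109). It passed without pBabe replicate 3 (limma adjusted p 0.0400).

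CRELD2, a secreted ER stress protein, and DNAJB11, a soluble co-chaperone of BiP, were the 2 members of the group that passed, in opposite directions. CRELD2 read 1985, 1827 and 2070 in FOXC2 and 1280, 1537 and 1364 in pBabe cultures. It was 1.41-fold higher in FOXC2 cells (95% confidence interval 1.19 to 1.68; limma adjusted p 0.0156). It did not pass without FOXC2 replicate 3 (0.0578) or with replicate number as a block (0.0574). DNAJB11 read 4001, 3735 and 3847 against 5090, 4677 and 4998, with a gap between tight groups. It was 1.27-fold lower in FOXC2 cells (95% confidence interval 1.11 to 1.47; limma adjusted p 0.0247). It did not pass without FOXC2 replicate 2 (0.0811), FOXC2 replicate 3 (0.0775), pBabe replicate 1 (0.0674) or pBabe replicate 3 (0.0643).

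Promoters of the genes discussed are shown so that the elements known for each branch can be read beside the values. RefSeq promoter windows (GRCh38.p14) of 300 bases, from 250 before to 50 after a transcript start, were matched for 37 of the 41 genes. The ERSE was searched as CCAAT and CCACG with 9 bases between them, on both strands, and only exact matches were counted. It was found in 5 of the 37 (13.5%), HSPA5, HSP90B1, PDIA6, CRELD2 and XBP1, and in 0.146% of the named genes of the array that had a window. The shorter ERSE-II, ATTGG and CCACG with any 1 base between them, was found in HYOU1, HERPUD1 and SDF2L1 (8.11% of the 37, 0.136% of the named genes). Of the 5 genes with an ERSE, CRELD2 rose and 4 did not pass, and their log2 fold changes ran from -0.09 to 0.49. Of the 32 genes without an exact ERSE, 1 rose, 5 fell and 26 did not pass, and the difference was not tested. Since these genes are known members of the pathway, the excess of elements is background and not a result of the comparison. A match describes letters and not a bound site.

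The exact ERSE was present in 4 of the 11 chaperone genes and in 0 of the 8 ISR factors with a window. Sequences 1 base away from it were not counted. The window of the ISR factor gene DDIT3 holds such a sequence, ending in CCACT, and that of HERPUD1 holds one ending in CCACA. The 3 promoters with an ERSE below are those of 2 genes that did not pass and of the 1 that rose, each as the 250 bases before the start, 5′ to 3′ on the gene's strand, with the ERSE in capitals. HSPA5 (chr9:125241344-125241593, minus strand) carries it from 66 to 48 bases before the start. HSP90B1 (chr12:103930160-103930409, plus strand) carries a pair, and CRELD2 (chr22:49918384-49918633, plus strand) carries 1, in reverse complement, from 80 to 62 bases before the start.
HSPA5: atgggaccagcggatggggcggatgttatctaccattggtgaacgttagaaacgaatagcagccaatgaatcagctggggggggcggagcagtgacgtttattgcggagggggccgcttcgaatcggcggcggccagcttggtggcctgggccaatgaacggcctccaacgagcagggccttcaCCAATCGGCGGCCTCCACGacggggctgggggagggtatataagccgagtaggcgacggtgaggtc
HSP90B1: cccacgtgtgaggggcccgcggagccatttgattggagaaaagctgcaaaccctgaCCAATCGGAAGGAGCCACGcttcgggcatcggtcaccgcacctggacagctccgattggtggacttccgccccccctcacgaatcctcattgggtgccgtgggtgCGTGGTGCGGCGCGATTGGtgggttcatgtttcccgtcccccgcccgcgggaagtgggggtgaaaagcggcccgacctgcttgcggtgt
CRELD2: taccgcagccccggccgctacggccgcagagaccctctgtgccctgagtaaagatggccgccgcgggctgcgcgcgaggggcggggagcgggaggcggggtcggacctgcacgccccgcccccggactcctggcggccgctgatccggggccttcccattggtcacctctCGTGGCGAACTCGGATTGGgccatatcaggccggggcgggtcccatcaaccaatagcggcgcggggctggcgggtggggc

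Both measured genes of ER-associated degradation, the disposal of misfolded protein, had lower values in FOXC2 cells, and 1 passed. EDEM1, a lectin that hands misfolded glycoproteins to disposal, read 2174, 2373 and 2468 in FOXC2 and 3291, 3569 and 2794 in pBabe cultures. It was 1.37-fold lower (95% confidence interval 1.13 to 1.67; limma adjusted p 0.0311). It passed in 1 of 6 fits with an array left out, that without pBabe replicate 3 (0.0212). The p was 0.0883 without FOXC2 replicate 1, 0.0758 without FOXC2 replicate 2, 0.0634 without FOXC2 replicate 3, 0.0830 without pBabe replicate 1 and 0.0838 without pBabe replicate 2. HERPUD1, a membrane part of the disposal complex, read 5433, 6719 and 8193 against 11263, 9785 and 8632. The groups did not overlap, but the FOXC2 cultures spanned 1.51-fold among themselves, and the gene did not pass (log2 fold change -0.56 ± 0.174, SE; limma adjusted p 0.0568). It passed without FOXC2 replicate 3 (0.0364).

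None of the sensors nor XBP1 passed (0 of 4, where 28.4% of all named genes did). ERN1 read 424, 424 and 468 in FOXC2 and 652, 683 and 431 in pBabe cultures, where 1 pBabe culture lay within the FOXC2 range. Its log2 fold change was -0.40 (limma adjusted p 0.155), and -0.61 without pBabe replicate 3 (0.0135). EIF2AK3 read 1607, 1630 and 1560 against 1549, 1900 and 1822, and ATF6 read 3652, 4093 and 3636 against 3877, 3956 and 4349. XBP1 read 4278, 5479 and 5697 against 5223, 4339 and 4144, a fold of 1.12 (95% confidence interval 0.881 to 1.43), with overlap in every one of these genes. The feature cannot be taken to tell spliced from unspliced XBP1 mRNA.

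The transcription factors and feedback genes of the ISR varied widely between cultures of 1 group. Of 9 measured, CEBPB fell and 8 did not pass, with a median log2 fold change of -0.13. The share that passed was 11.1% (28.4% of all named genes). ATF4, the central factor, had the smallest within-group spread of the 9, at 19611, 20787 and 17481 in FOXC2 and 19416, 19503 and 17944 in pBabe cultures. Its fold was 1.02 (95% confidence interval 0.862 to 1.2), and a dimmer second ATF4 feature gave -0.21 on the log2 scale (limma adjusted p 0.328). DDIT3, which encodes CHOP, a factor tied to cell death under lasting stress, read 1319, 2348 and 2527 against 5384, 3537 and 2040. The groups overlapped only through the lowest pBabe culture, and the spread left a log2 fold change of -0.77 ± 0.393 (SE; limma adjusted p 0.193). With 1 array left out it lay between -1.14 and -0.44 and never passed.

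ATF3, an early stress-induced repressor, read 1687, 2575 and 3423 in FOXC2 and 4024, 2963 and 1630 in pBabe cultures. TRIB3, a pseudokinase that restrains ATF4, read 2184, 2539 and 2578 against 3528, 3181 and 1786. PPP1R15A, which recruits the phosphatase for eIF2alpha, read 4860, 7764 and 7637 against 8595, 7893 and 4546. In all of these the pBabe range enclosed the FOXC2 range, and the log2 fold changes were -0.13, -0.16 and -0.03. TRIB3 passed without pBabe replicate 3 (log2 fold change -0.47, limma adjusted p 0.0480). ATF5, a relative of ATF4 that is also translated under stress, was at -0.31 (limma adjusted p 0.120) with no overlap between groups. CEBPG, a partner of ATF4, was at 0.36 (0.117; 0.0288 without pBabe replicate 2), and NUPR1, a stress-induced chromatin protein, at 0.15 (0.576).

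**Figure D3:**
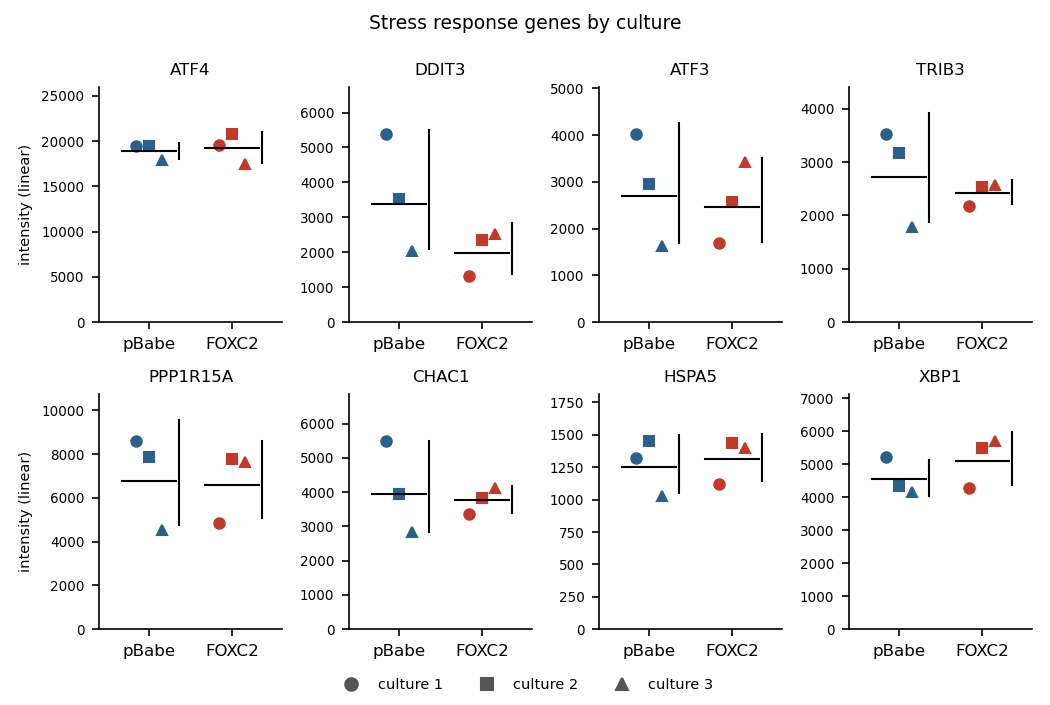
Linear intensity (vertical axes, from 0) of 6 ISR genes and of HSPA5 and XBP1 by group, with 1 symbol per culture and bars for the mean and 1 SD of the log2 values. DDIT3 runs from 2040 to 5384 within the pBabe cultures, while ATF4 stays between 17481 and 20787 in all 6.

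The spread of these genes followed individual cultures. Replicate numbers carry no order, and same-numbered cultures did not deviate together. FOXC2 replicate 1 was the lowest FOXC2 culture for 8 of the 9 ISR factors and pBabe replicate 3 the lowest pBabe culture for 8 of the 9. The exceptions were ATF4 for the first and NUPR1 for the second. Over all 41 genes they were lowest for 27 (65.9%) and 26 (63.4%), and over all named genes for 37.7% and 33.4%. The median deviation of the 9 factors from their group's mean was -0.15 in FOXC2 replicate 1 and -0.22 in pBabe replicate 3, and 0.20 in pBabe replicate 1 (log2 scale). Among the ER chaperones FOXC2 replicate 1 was lowest for 5 of 11 and pBabe replicate 3 for 6 of 11. What set these cultures apart was not tested.

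The within-group SD of the log2 intensity puts a size on it. It was 0.615 for DDIT3, 0.593 for ATF3, 0.445 for PPP1R15A and 0.386 for TRIB3. The median over the 16681 features at or above the median brightness was 0.109, and each of these 4 genes exceeded at least 99.7% of those features. VLDLR, at 0.0896, and DNAJB11, at 0.0576, were below that median. By role, the median SD was 0.258 for the ISR factors and 0.0999 for the ER chaperones. A list of 30 other known ATF4 and CHOP targets showed the same 2 cultures as lowest, FOXC2 replicate 1 for 19 (63.3%) and pBabe replicate 3 for 20 (66.7%). So did 17 cytosolic heat shock genes, at 10 and 10 (58.8% each). In 21 other ER folding genes, which include calreticulin and calnexin, these cultures were lowest for 8 (38.1%) and 4 (19.0%).

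**Figure D4:**
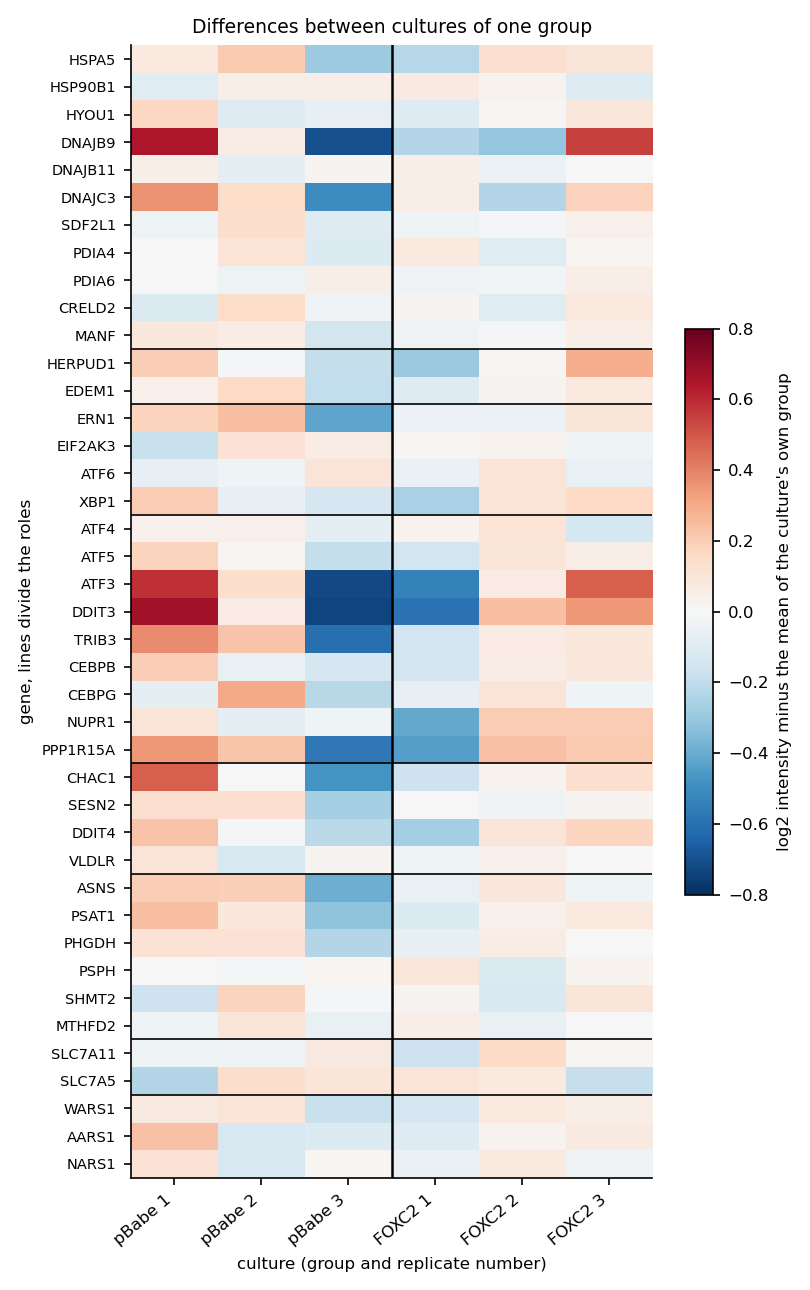
Log2 intensity minus the mean of the culture's own group (colour) for 41 genes (rows, divided by role) in the 6 cultures (columns). Blue fields gather in pBabe 3 and FOXC2 1 among the ISR factors, with DDIT3 and ATF3 the deepest, while the rows of PDIA6 and PSPH are pale.

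Of 4 effectors downstream of ATF4 that were measured, VLDLR and DDIT4 fell as given above, and CHAC1 and SESN2 did not pass. CHAC1, which breaks down glutathione and is a sensitive ATF4 target, read 3352, 3829 and 4131 in FOXC2 and 5488, 3950 and 2836 in pBabe cultures, so that the FOXC2 values lay inside the pBabe range. Its log2 fold change was -0.07 ± 0.234 (SE). SESN2, a leucine sensor that restrains mTORC1, read 1691, 1654 and 1713 against 1489, 1495 and 1133, with no overlap and a difference of 0.31 on the log2 scale (limma adjusted p 0.121). DDIT4 and SESN2, both restraints on mTORC1, thus had opposite signs, and the difference between them was not tested.

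The enzymes of serine, glycine, asparagine and one-carbon metabolism had negative log2 fold changes in 6 of 6 cases, with MTHFD2 at only -0.03. Of the 6, 1 passed (16.7%, 28.4% of all named genes). Among 20 other amino acid and one-carbon enzymes, 16 had positive and 4 had negative log2 fold changes. PSPH, the last step of serine synthesis, read 2365, 2051 and 2262 in FOXC2 and 2858, 2848 and 2898 in pBabe cultures. It was 1.29-fold lower (95% confidence interval 1.11 to 1.5; limma adjusted p 0.0255). It passed without FOXC2 replicate 1 (0.0387). The p was 0.0807 without FOXC2 replicate 2, 0.0693 without FOXC2 replicate 3, 0.0609 without pBabe replicate 1, 0.0632 without pBabe replicate 2 and 0.0652 without pBabe replicate 3. PHGDH, the first step, read 7524, 8221 and 7895 against 11211, 11180 and 8783, which is -0.39 ± 0.121 on the log2 scale (SE; limma adjusted p 0.0552, and 0.0194 without pBabe replicate 3). The middle step, PSAT1, was at -0.26 (limma adjusted p 0.265), asparagine synthetase, ASNS, at -0.17 (0.490) and the mitochondrial glycine-forming enzyme SHMT2 at -0.28 (0.128). MTHFD2, the next mitochondrial step in one-carbon metabolism, read 7257, 6724 and 7022 against 6945, 7685 and 6868, a fold of 0.978 (95% confidence interval 0.844 to 1.13).

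Of the 2 amino acid transporters measured, SLC7A5 rose and SLC7A11 did not pass. SLC7A5 carries large neutral amino acids such as leucine into the cell. It read 30593, 30029 and 25092 in FOXC2 and 16699, 21616 and 21016 in pBabe cultures, all FOXC2 cultures above all pBabe cultures. It was 1.45-fold higher in FOXC2 cells (95% confidence interval 1.15 to 1.82; limma adjusted p 0.0305). It did not pass without FOXC2 replicate 1 (0.0863), FOXC2 replicate 2 (0.0897), pBabe replicate 1 (0.0676) or pBabe replicate 3 (0.0546). SLC7A11, the cystine importer that feeds glutathione synthesis, read 639, 795 and 722 against 691, 697 and 746, a fold of 1.01 (95% confidence interval 0.844 to 1.2). None of the 3 tRNA synthetases passed, where 28.4% of all named genes did. AARS1 was at -0.38 on the log2 scale (limma adjusted p 0.0661), WARS1 at 0.30 (0.101) and NARS1 at -0.02 (0.920). AARS1 and WARS1 had no overlap between groups, in opposite directions (66.7% of the 3, 48.4% of all named genes). The WARS1 gene is also known to respond to interferon.

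The binding site shared by C/EBP factors and ATF4 was searched as TGATG, any 1 base, AA and any 1 base, on both strands, and it may be read beside these values. It was found in 7 of the 37 genes with a window (18.9%), AARS1, ASNS, ATF3, CEBPG, CHAC1, HERPUD1 and NARS1, and in 2.91% of the named genes. None of the 7 passed, where 28.4% of all named genes did, and their log2 fold changes ran from -0.56 to 0.36. Of the 30 genes without a match, 2 rose, 5 fell and 23 did not pass, and the difference was not tested. HERPUD1 (chr16:56931892-56932141, plus strand) carries this element and an ERSE-II, both in capitals below, and lies in both branches. ASNS (chr7:97872409-97872658, minus strand) and CHAC1 (chr15:40953221-40953470, plus strand) carry the element alone. VLDLR (chr9:2621537-2621786, plus strand), CEBPB (chr20:50190333-50190582, plus strand, the first of its pair of windows) and DDIT4 (chr10:72273674-72273923, plus strand), the genes with the largest falls, hold none of the 3 elements in their windows. An element outside the window, or with letters other than those searched, was not looked for.
HERPUD1: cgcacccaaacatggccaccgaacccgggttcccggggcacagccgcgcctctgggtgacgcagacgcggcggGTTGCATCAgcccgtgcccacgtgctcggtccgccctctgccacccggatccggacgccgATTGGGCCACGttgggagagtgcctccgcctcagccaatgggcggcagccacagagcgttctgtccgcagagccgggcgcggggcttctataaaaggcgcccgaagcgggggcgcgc
ASNS: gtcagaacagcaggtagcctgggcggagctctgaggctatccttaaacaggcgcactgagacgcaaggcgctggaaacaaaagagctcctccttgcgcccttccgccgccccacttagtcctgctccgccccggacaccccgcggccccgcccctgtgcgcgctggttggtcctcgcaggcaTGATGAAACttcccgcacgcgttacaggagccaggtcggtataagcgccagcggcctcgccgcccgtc
CHAC1: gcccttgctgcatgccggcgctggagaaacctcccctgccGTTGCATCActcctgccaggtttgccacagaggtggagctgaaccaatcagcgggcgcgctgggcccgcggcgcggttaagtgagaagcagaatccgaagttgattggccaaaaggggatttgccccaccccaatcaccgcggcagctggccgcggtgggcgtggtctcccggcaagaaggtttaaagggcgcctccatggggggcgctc
VLDLR: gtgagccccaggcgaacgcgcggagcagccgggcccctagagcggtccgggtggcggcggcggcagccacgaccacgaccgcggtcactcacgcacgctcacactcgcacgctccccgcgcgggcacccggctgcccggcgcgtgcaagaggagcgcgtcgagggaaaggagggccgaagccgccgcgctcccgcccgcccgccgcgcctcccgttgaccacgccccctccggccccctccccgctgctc
CEBPB: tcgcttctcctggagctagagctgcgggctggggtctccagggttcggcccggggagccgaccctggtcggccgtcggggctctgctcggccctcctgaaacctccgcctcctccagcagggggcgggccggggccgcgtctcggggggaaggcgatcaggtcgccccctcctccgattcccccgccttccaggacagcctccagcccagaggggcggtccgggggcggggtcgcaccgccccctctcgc
DDIT4: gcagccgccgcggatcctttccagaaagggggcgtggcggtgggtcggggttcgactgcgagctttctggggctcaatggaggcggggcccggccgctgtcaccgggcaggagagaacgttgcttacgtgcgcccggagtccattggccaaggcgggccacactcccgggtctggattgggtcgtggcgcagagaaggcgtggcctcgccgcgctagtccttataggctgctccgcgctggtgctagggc

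Genes of the same pathways outside the 44 were counted from 11 lists of 254 genes, of which 226 were measured. Of these, 25 rose, 29 fell and 172 did not pass, and 23.9% passed in either direction against 28.4% of all named genes. Differences between the lists were not tested. Of 21 other folding genes 1 rose (FKBP2, log2 fold change 0.39) and 2 fell (FKBP14, -0.92, and ERO1B, -0.58), 14.3% in all. ERO1B was dim, at means of 148 in FOXC2 and 222 in pBabe, so the size of its fall is uncertain. Of 21 other disposal genes 0 rose and 1 fell, OS9, the lectin partner of the disposal complex (-0.66 ± 0.0911, SE; limma adjusted p 0.00297). Of the 21 disposal genes 4.76% passed, and 4 had an unadjusted p under 0.05. Of 30 genes for entry into and traffic through the ER 3 rose, SURF4, SEC11C and SPCS2, by 0.36 to 0.44, and 0 fell. Of these 30, 10.0% passed, and 5 had an unadjusted p under 0.05.

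Of 15 genes for ER stress sensors and their processing 5 fell and 0 rose, with 7 at an unadjusted p under 0.05. The share that passed was 33.3%, all of it lower. Of all named genes 28.4% passed, 14.3% lower and 14.1% higher, and the difference was not tested. The groups did not overlap for 11 of the 15 (73.3%, 48.4% of all named genes), 5 with FOXC2 above and 6 with FOXC2 below. CREB3L1, a membrane-bound factor cleaved like ATF6 and known for its part in collagen secretion, had mean intensities of 1280 in FOXC2 and 4664 in pBabe cultures. It was 3.64-fold lower (log2 fold change -1.87 ± 0.0932, SE; limma adjusted p 6.21e-05). Its relatives CREB3L3 and CREB3L4 fell by 0.98 and 0.50 on the log2 scale, and MBTPS2, a protease that cleaves such factors, by 0.51. Of 19 genes for eIF2alpha kinases and the eIF2 machinery 3 rose and 5 fell, 42.1% in all (28.4% of all named genes). EIF2AK1, the kinase known for sensing haem, was 1.58-fold lower, at means of 7086 against 11182 (limma adjusted p 0.00779). EIF5 (-0.92), NCK1 (-0.54) and EIF2B1 (-0.47) fell as well. The means of EIF5, 132 in FOXC2 and 249 in pBabe, were below the lower quartile of 276 of the table, so the size of its fall is uncertain.

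Other targets of ATF4 and CHOP moved in both directions, with 5 of 30 higher and 6 lower and a median log2 fold change of 0.04. The share of them that passed was 36.7%, where 28.4% of all named genes passed. CEBPD, a relative of CEBPB, fell by 1.34 on the log2 scale (limma adjusted p 5.86e-04), the autophagy receptor SQSTM1 by 0.84 and the leucine zipper repressor JDP2 by 0.66, while the cell death gene PMAIP1 rose by 0.77. Of 20 other transporters 3 rose and 4 fell, 35.0% in all. SLC38A5, a glutamine and serine carrier, rose 2.37-fold (limma adjusted p 2.00e-04), SLC1A1 and SLC43A1 rose 1.88-fold and 1.74-fold, and SLC1A3, a glutamate carrier, fell by 1.78 on the log2 scale. Of 20 other amino acid and one-carbon enzymes 5 rose and 1 fell, 30.0% in all. GLDC and AMT, parts of the glycine cleavage system, went opposite ways, at means of 382 against 121 for GLDC (3.16-fold higher) and 302 against 631 for AMT (2.09-fold lower). The pBabe levels of GLDC and of SLC1A1 (mean 193) were below the lower quartile of 276 of the table, so the sizes of their rises are uncertain.

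Of 20 other synthetases 2 rose (VARS1, 0.42, and HARS1, 0.36) and 1 fell (QARS1, -0.56), 15.0% in all (28.4% of all named genes). Of 13 mitochondrial chaperones and proteases 2 rose (GRPEL1, 0.33, and CLPP, 0.32) and 1 fell (HTRA2, -0.75), 23.1% in all. Of 17 cytosolic heat shock genes 1 rose and 3 fell, 23.5% in all. The small heat shock proteins CRYAB and HSPB8 fell by 3.00 and 1.49 on the log2 scale, with mean intensities in FOXC2 cells of 94.4 and 278, near the dim end of the table. The co-chaperone BAG3 fell by 0.39, and the heat shock factor HSF1 rose by 0.31 (limma adjusted p 0.0447). The counts of genes that rose over the 11 lists were 11 to 16 with 1 array left out, against 25 with all 6. They were 14 without FOXC2 replicate 1, FOXC2 replicate 2 or pBabe replicate 3, 11 without FOXC2 replicate 3 or pBabe replicate 2, and 16 without pBabe replicate 1. The counts of genes that fell were 21 to 25, against 29 with all 6. Of all named genes 19.0% to 22.3% passed in these fits, against 28.4% with all 6.

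**Figure D5:**
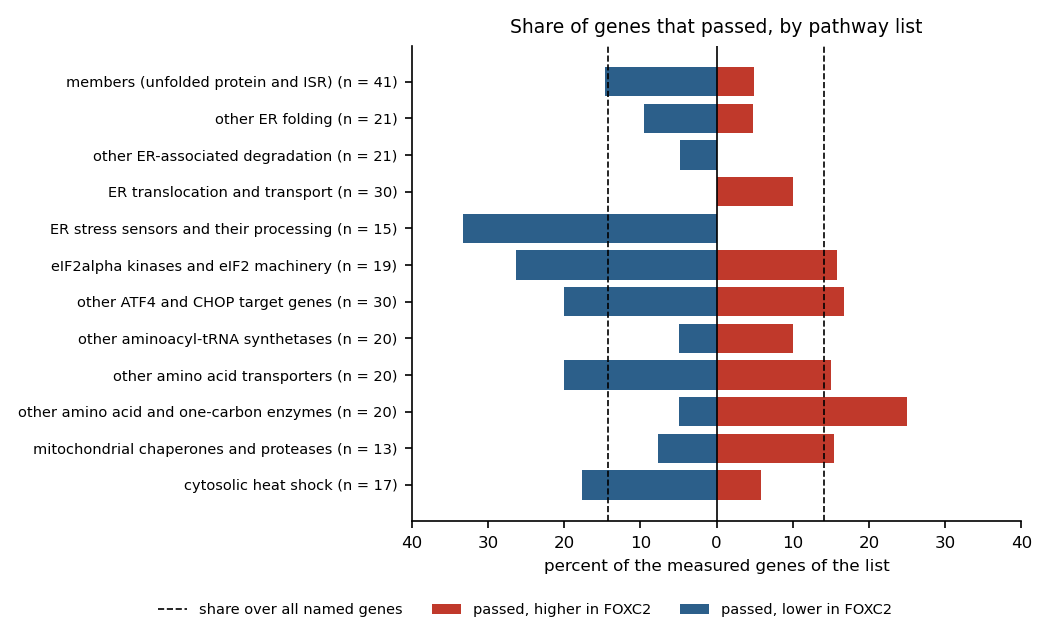
Percent of the measured genes of each list that passed, higher in FOXC2 to the right and lower to the left, with n the number measured. The dashed lines mark the shares over all named genes, 14.1% higher and 14.3% lower. The bar of 5 of 15 genes for ER stress sensors and their processing reaches farthest to the left.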

How the data were processed

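Transcripts were measured in 6 SW480 cultures, 3 per group, and groups were taken from the sample titles. The authors deposited linear intensities made with RMA, per the submitters' processing notes. Its version, background settings and build were not named in those sources. RMA normally makes array distributions alike, so a shift shared by all transcripts would not be seen. No analysed value was below 50, and detection calls, slides and scans were not used here. Of 33497 features, 13730 had 1 gene symbol in the platform annotation, and the other 19767 had none or more than 1.

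Intensities were taken to log2 with no offset or filter and fitted over all features in limma 3.58.1 (R 4.3.3, lmFit and eBayes). P-values were adjusted by Benjamini-Hochberg. With 3 arrays per group precision is limited. The steps were tested on simulated data. Genes, lists, motifs and alternatives were chosen with earlier results of these data known. Every measured gene of the 44 was named, and up to 4 passing genes per wider list by size. Promoters shown were those of HSPA5 and of the passing genes with the largest changes by rule, and others chosen for their elements after values were seen. Alternatives were an offset of 16, array weights, quantile normalization, median centring, the other features of a gene, a robust trended prior, a filter on dim features, a replicate block and fits without each array in turn.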

Additional observations from a re-analysis of the deposited data

How the results depend on the processing

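With the replicate block 0 of the 41 genes rose and 3 fell, VLDLR, CEBPB and DDIT4 (7.32%, 19.5% of all named genes). Over the wider lists 9 rose and 23 fell. Same-numbered cultures did not deviate together (correlations of -0.102, -0.119 and -0.0615), and no culture correlated best with its own number. The values thus show no pairing by number, but the labels do not say whether cultures were handled in pairs. With dim features left out 5 rose and 11 fell among 36 genes (44.4%, 44.7% of the named genes kept). With a trended robust prior 4 rose and 12 fell among 41 (39.0%, 35.3% of all named genes). The cause was not tested, though the filter on dim features tests fewer of them. That filter looked at the mean of each group, and CEBPG, 1 of the 5 that rose, was kept through its FOXC2 mean alone. With 1 array left out the count of higher genes ran from 1 to 3, of lower genes from 3 to 8, and the median log2 fold change from -0.29 to -0.05. Over the wider lists the count of higher genes ran from 11 to 16 and of lower genes from 21 to 25. Of all named genes 19.0% to 22.3% passed in these fits. Quantile normalization and median centring left the counts at 2 and 6. Of 364 single-gene values under the other settings, 338 kept direction and side of the threshold, 17 newly passed, 5 no longer passed, and 4 that never passed changed sign. With 1 array left out, 202 of 246 did so, 6 newly passed and 19 no longer passed. The other 19 changed sign and passed neither with all 6 arrays nor in that fit. Without detection calls, folds of dim genes such as DNAJB9 are uncertain.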
